A study of Mus musculus with 19 samples.

Results

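Autophagy and lysosome genes were examined in RNA-seq of mouse small-intestinal crypts, the epithelial pits that hold the stem and Paneth cells. The 39 genes are named genes of the autophagy machinery and of the lysosome, taken by symbol with no threshold on a measured value. All 39 were found among the 55487 genes of the deposited files, and all 39 passed the filter on low counts that left 17877 genes for testing. They fall into 8 roles, from the kinase complex that starts autophagy to the enzymes of the lysosome.

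The mice were C57BL/6 males and females, either wild type for neurotensin (Nt+/+) or lacking the gene (Nt-/-), a gut peptide made by enteroendocrine cells. Nt-/- mice lack the gene throughout the body. Per its methods the study kept adult mice of both genotypes with and without Lgr5-EGFP-IRES-CreERT2, an allele that places a reporter and Cre at the stem cell gene Lgr5. The labels state neither an age nor whether the sequenced mice carried that allele. On free access to chow there were 5 Nt+/+ and 4 Nt-/- mice, and after a fast of 48 h with water there were 5 of each genotype. Total counts ran from 9059478 to 35068719 per mouse, with a median of 18541821. Nts, the neurotensin gene, lay between 4.98 and 8.59 CPM (counts scaled to library size) in all Nt+/+ mice and between 0.14 and 0.79 CPM in all Nt-/- mice. One fasted mouse, replicate 5, has Nt+/+ in its title and the knockout in its genotype label. It had 5.43 CPM of Nts, in the Nt+/+ range, and was analysed by its title. Its effect is given below for the counts of members and for some calls of other pathway genes. It was not followed for the cell type markers. No source states whether the same-group mice came from separate litters, so p-values measure the spread between these mice.

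Autophagy encloses part of the cytoplasm in a double membrane, the autophagosome, and delivers it to the lysosome for breakdown. It is best known as a response to lack of nutrients, when the ULK1 kinase complex is released from inhibition by mTORC1, a lipid kinase complex marks the forming membrane, and conjugation enzymes attach ATG8 proteins to it. Receptors then tie cargo to ATG8, and lysosomal hydrolases digest it. In the intestine, autophagy genes are known for their part in Paneth cell granules and in stem cell maintenance. Much of the pathway is controlled on the protein, which these RNA data do not measure.

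Levels between genes were compared in TPM, a unit that accounts for transcript length as well as library size. In ad libitum-fed Nt+/+ mice the members spanned from 149 ± 6.16 TPM (SD, n = 5) for Ctsb, a lysosomal cysteine protease, to 2.11 ± 0.47 TPM for Bnip3, a mitophagy receptor. Gabarap, an ATG8 protein, followed Ctsb at 148 ± 9.1 TPM, and Lamp1, the main glycoprotein of the lysosomal membrane, stood at 143 ± 13.9 TPM. The ranges of these 3 genes over mice overlapped, so their order was not resolved. At the low end Ulk2, Atg14 and Map1lc3a had 5.72 ± 0.8, 5.02 ± 1.07 and 4.13 ± 0.47 TPM. The range of Atg14 overlapped both others, while every mouse had more Ulk2 (4.76 to 6.62 TPM) than the highest Map1lc3a value (4.64 TPM). Among the ATG8 genes Gabarap thus had the highest level and Map1lc3a the lowest, with Gabarapl2 at 44.8 ± 2.4 TPM and Map1lc3b at 35.9 ± 4.65 TPM between them.

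**Figure D1:**
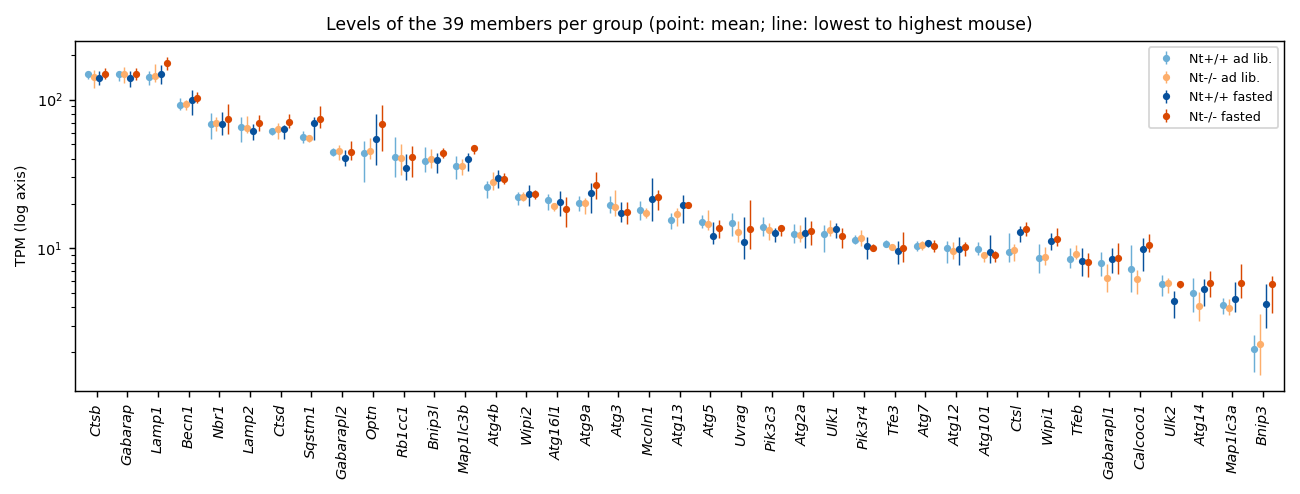
TPM (log axis) of each of the 39 members in the 4 groups, ordered by the mean in ad libitum-fed Nt+/+ mice; points are group means and lines run from the lowest to the highest mouse. Bnip3, last in the order at 2.11 TPM, shows the widest gap between fed and fasted groups.

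Fasting was followed by higher levels of a subset of the members in both genotypes, with cargo receptors and lysosomal genes among them. In Nt+/+ mice 7 of 39 members rose and 2 fell at an adjusted p under 0.05 (edgeR quasi-likelihood test, Benjamini-Hochberg over all genes tested). Of all 17877 genes, 21.6% passed that test in either direction, 11.2% higher and 10.4% lower, so the members' share of 23.1% was near the background. In Nt-/- mice 13 of 39 rose and 0 fell, against 25.1% of all genes in either direction, 12.5% higher and 12.6% lower, with a members' share of 33.3%. The median standard error (SE) was 0.087 and 0.092 for the members and 0.156 and 0.167 for all genes. With at least 10 counts required in every mouse, 27.5% and 31.6% of 13806 genes were called. Under that filter the members gained 1 and 3 calls and lost 0. The median log2 fold change of the members was 0.08 in Nt+/+ and 0.09 in Nt-/- mice, beside -0.01 and -0.02 for all genes. The 2 fasting comparisons share no mouse. In both genotypes 6 of 39 members rose and 0 fell, which is 15.4% of members, beside 16.4% of all genes called the same way in both. That 16.4% holds both directions, with 1513 genes higher and 1416 lower of 17877.

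Several calls rested on single mice. Without ad libitum-fed Nt+/+ replicate 4 or fasted Nt+/+ replicate 3, the number of members that rose in Nt+/+ mice was 4 in place of 7. Without the mouse with disagreeing labels it was 6, with 3 that fell, and with that mouse placed among the knockouts 6 rose in Nt+/+ and 10 in Nt-/- mice. Blocking on the number in the file names (replicate block), 10 members rose in Nt+/+ and 15 in Nt-/- mice, while the share of all genes called in either direction went up to 30.7% and 31.7%.

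**Figure D2:**
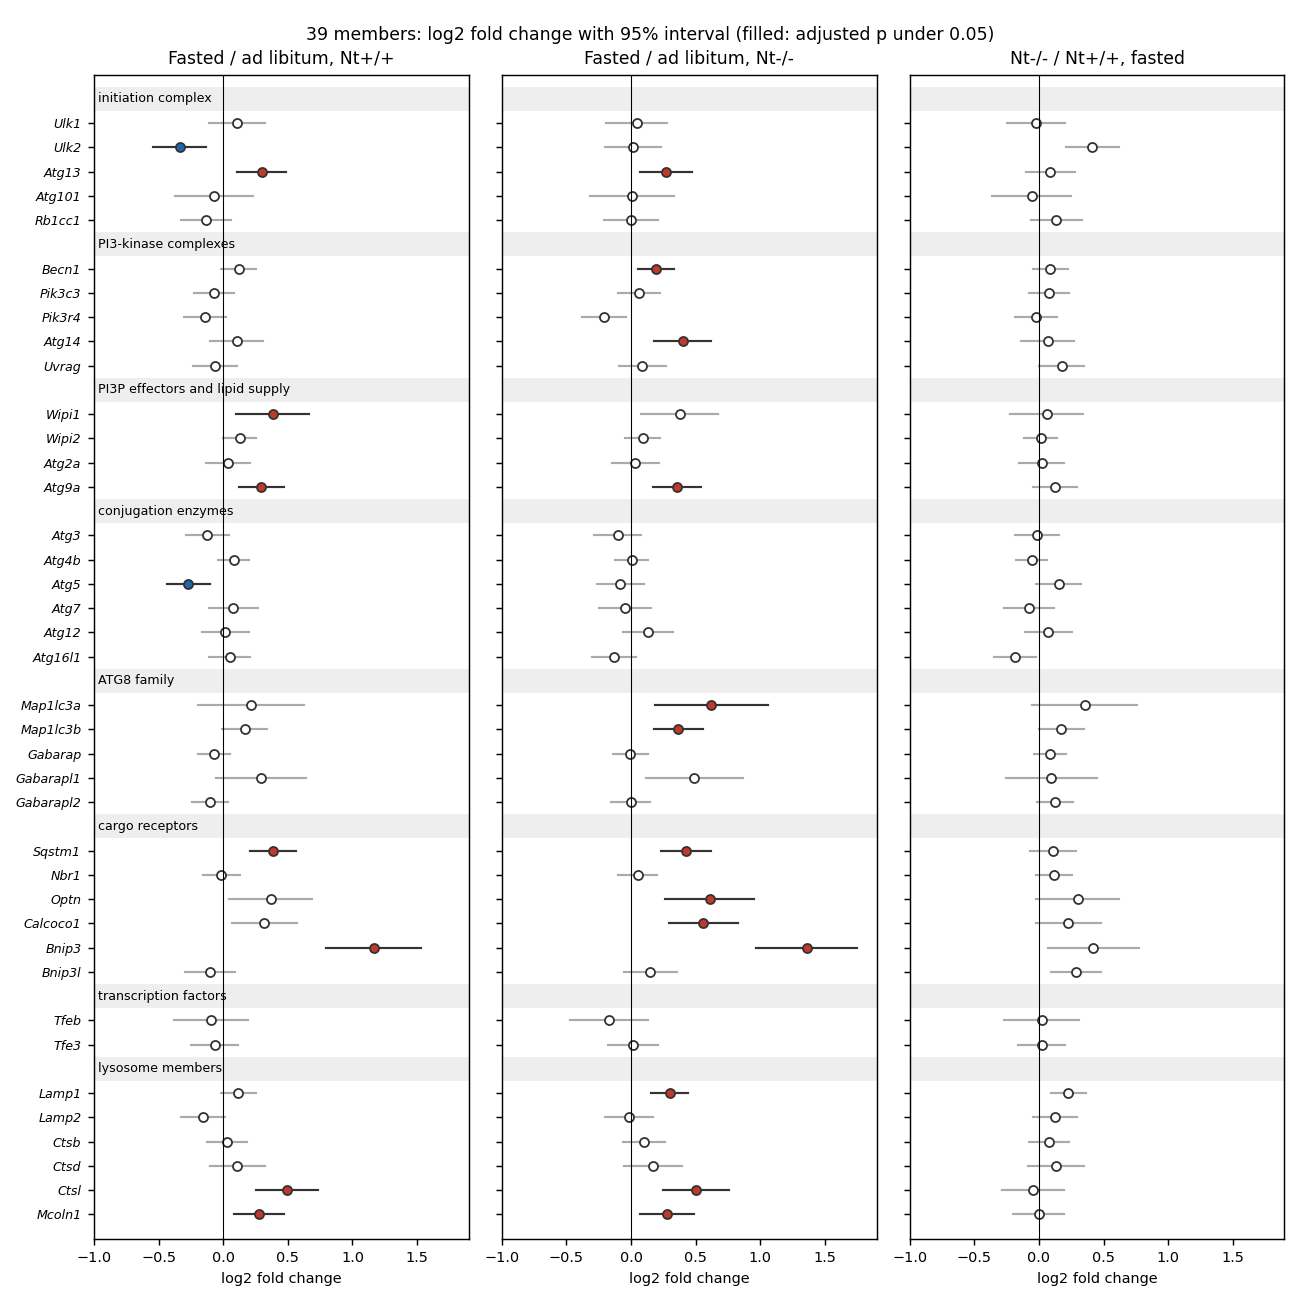
Log2 fold changes with 95% intervals of the 39 members, grouped by role, for fasting in Nt+/+ mice (left), fasting in Nt-/- mice (middle) and Nt-/- against Nt+/+ mice after fasting (right); filled points passed an adjusted p of 0.05. Filled points number 9 on the left, 13 in the middle and 0 on the right, and Bnip3 lies farthest from 0 in both fasting panels.

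Marker genes of several cell types changed with fasting as well. The summed CPM of 7 enterocyte markers ran from 3210 to 7004 in ad libitum-fed and 6885 to 14560 in fasted Nt+/+ mice, and from 5105 to 7691 and 12640 to 17080 in Nt-/- mice. Of these 7 genes, 5 rose in Nt+/+ and 7 in Nt-/- mice, Fabp1, a fatty acid binding protein, by 2.09 and 2.05 on the log2 scale. Of 5 genes of the crypt base and of dividing cells, 2 fell in Nt+/+ mice, Olfm4 and Mki67, and 3 in Nt-/- mice, the same pair and Smoc2. The log2 fold changes of the list ran from -0.63 to 0.63 and from -0.92 to 0.12, with 2 and 1 of 5 above 0. The stem cell genes Lgr5 and Ascl2 passed in neither genotype, and the genes above 0 were among Lgr5, Ascl2 and Smoc2. Mki67, a gene of dividing cells, fell by 0.46 and by 0.59. Of 5 goblet cell genes, Agr2 and Clca1 fell in both genotypes and Muc2 in Nt-/- mice, while Tff3 and Fcgbp passed in neither, with log2 fold changes of 0.13 and 0.17 in Nt+/+ and 0.03 and 0.16 in Nt-/- mice. In bulk tissue a change in the share of a cell type and a change in RNA per cell cannot be told apart, and the part of these shifts in the members' changes was not tested. None of the 5 pan-epithelial markers passed the test, Epcam lying between 884 and 1120 CPM in all mice. Of 6 Paneth markers, 1 fell, Defa17 in Nt-/- mice. The macrophage genes Adgre1, C1qa, C1qb and C1qc stayed under 0.67 CPM in every mouse, with Adgre1 at 0 in 4 mice. Summed over the 10 genes of the macrophage and myeloid list, the level was 63.8 to 84.8 CPM in fed and 49.1 to 83.6 CPM in fasted Nt+/+ mice and 52.9 to 76.7 and 54.4 to 71.6 CPM in Nt-/- mice. Most of this sum was Ptprc (21.1 to 62.3 CPM), which is not particular to myeloid cells, and Itgam (9.6 to 24.8 CPM). Of the 6 genes of that list tested 1 was called, Itgam, which fell by 0.83 (adjusted p = 0.000145) and by 0.54 (adjusted p = 0.00652) by edgeR. The 7 mesenchymal genes summed to 5.95 to 12.5 CPM. T cell genes summed to 40.3 to 127 CPM in fed and 46.8 to 186 CPM in fasted Nt+/+ mice and to 55.8 to 119.5 CPM in fed and 99.3 to 179 CPM in fasted Nt-/- mice, and 1 of 6, Gzma, rose in Nt-/- mice.

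The start sites of several members carry the short word CACGTG, the core of the element bound by TFEB and TFE3, the transcription factors known to drive lysosomal genes. RefSeq windows of 300 bases around start sites (GRCm38.p6, 250 bases before to 50 after) were matched to 31 of the 39 members by symbol. Atg12, Atg16l1, Becn1, Bnip3l, Ctsb, Map1lc3a, Pik3c3 and Rb1cc1 had no entry. The word, which reads the same on both strands, occurred in 9 of the 31 genes (29.0%) and in 8.09% of all 27025 genes with a window. Its longer form TCACGTG, which contains it, searched on both strands, occurred in 6 members (19.4%) and in 4.29% of all genes. GTAAACA, a word bound by forkhead factors such as FOXO3, occurred in 0 of the 31 and in 4.05% of all genes. Of the 14 members with a window that passed the test in at least one fasting comparison, 6 had CACGTG, and of the other 17, 3 had it. For the longer TCACGTG the counts were 3 of 14 and 3 of 17. The occurrence closest to each start site is printed for the 9 genes, on the gene's strand with the word in capitals, so that the sequence around it can be compared between members that rose and members that did not. A match describes these letters only.
Lamp1, chr8:13159134-13159163, plus strand: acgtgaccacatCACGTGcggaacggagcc
Mcoln1, chr8:3500462-3500491, plus strand: aggcgccccgctCACGTGaccgcggcgcat
Bnip3, chr7:138909597-138909626, minus strand: gcgcacgcgccgCACGTGccacacgctccc
Ctsl, chr13:64370739-64370768, minus strand: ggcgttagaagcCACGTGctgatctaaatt
Atg14, chr14:47568418-47568447, minus strand: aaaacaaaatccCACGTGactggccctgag
Atg5, chr10:44268313-44268342, plus strand: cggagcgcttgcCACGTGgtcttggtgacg
Ctsd, chr7:142387908-142387937, minus strand: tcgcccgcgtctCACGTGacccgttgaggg
Atg3, chr16:45158746-45158775, plus strand: ggagagtcgagtCACGTGaggccttaggtg
Atg7, chr6:114670952-114670981, plus strand: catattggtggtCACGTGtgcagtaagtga
Lamp1, Mcoln1, Bnip3, Ctsl and Atg14 rose and Atg5 fell in at least one fasting comparison, and Ctsd, Atg3 and Atg7 passed neither test. Lamp1 had 4 occurrences in its window, and Mcoln1, Ctsd and Atg3 had 2 each.

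Cargo receptors held the largest fasting effect of the 39 members in both genotypes. Bnip3 (chromosome 7, 138890836 to 138909519, minus strand, GRCm38) encodes an outer-membrane receptor that directs mitochondria to autophagosomes. It had 2.11, 2.36, 2.71, 2.39 and 2.17 CPM in the ad libitum-fed Nt+/+ mice and 4.00, 6.48, 4.99, 5.83 and 5.04 CPM in the fasted ones. In Nt-/- mice the values were 2.83, 2.00, 2.65 and 3.46 CPM fed and 5.45, 7.26, 7.34, 5.92 and 9.14 CPM fasted. Every fasted mouse stood above every fed mouse of its genotype. The log2 fold change was 1.17 (SE 0.18, adjusted p = 0.000109) in Nt+/+ and 1.36 (SE 0.19, adjusted p = 3.46e-05) in Nt-/- mice by edgeR. These are low counts, from 37 to 173 per mouse, and 22.3% of the gene's exon bases overlap an antisense gene, so reads of the pair may be mixed.

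Sqstm1 (chromosome 11, 50199366 to 50210827, minus strand) encodes p62, which binds ubiquitinated cargo and is itself degraded by autophagy. Fed Nt+/+ mice had 82.2, 74.8, 75.4, 65.1 and 72.2 CPM, and fasted ones 98.0, 97.8, 100.5, 97.3 and 88.6 CPM. Fed Nt-/- mice had 87.2, 76.7, 71.7 and 73.5 CPM, and fasted ones 123, 114, 94.0, 89.0 and 99.4 CPM. Again no fasted mouse fell into the fed range of its genotype, although the lowest fasted Nt-/- mouse lay just above the highest fed one. Sqstm1 rose by 0.38 (SE 0.085, adjusted p = 0.00322) in Nt+/+ and by 0.43 (SE 0.091, adjusted p = 0.00195) in Nt-/- mice on the log2 scale (edgeR).

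Of the remaining 4 receptors, Calcoco1 and Optn passed the test in Nt-/- mice. Calcoco1, a receptor linked to turnover of endoplasmic reticulum and Golgi, ranged from 12.5 to 17.2 CPM fed and 19.02 to 25.2 CPM fasted in Nt-/- mice, a log2 fold change of 0.56 (SE 0.13, edgeR adjusted p = 0.00334). In Nt+/+ mice its ranges overlapped, 11.2 to 18.95 and 16.3 to 20.5 CPM, with 0.32 (adjusted p = 0.0651). Optn, optineurin, which binds ubiquitin on mitochondria and bacteria, showed 0.61 (adjusted p = 0.0103) in Nt-/- and 0.37 (adjusted p = 0.0976) in Nt+/+ mice. With mice of the same number in the file names paired as a replicate block, both genes also passed in Nt+/+ mice, at adjusted p = 0.0202 for Calcoco1 and 0.0381 for Optn. The receptors Nbr1 and Bnip3l passed in neither genotype, with log2 fold changes of -0.01 and -0.10 in Nt+/+ and 0.05 and 0.15 in Nt-/- mice. Bnip3l is the closest relative of Bnip3 and likewise a mitophagy receptor.

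Of the 6 lysosomal members, 2 rose in Nt+/+ and 3 in Nt-/- mice. Ctsl (chromosome 13, 64359337 to 64370890, minus strand) encodes cathepsin L, a cysteine protease that degrades protein in the lysosome. In Nt+/+ mice it had 12.4, 9.83, 11.8, 9.19 and 11.3 CPM fed and 14.7, 14.5, 15.1, 14.5 and 17.9 CPM fasted. In Nt-/- mice it had 12.9, 9.69, 8.76 and 10.4 CPM fed and 17.1, 14.2, 14.3, 13.8 and 14.6 CPM fasted. Fed and fasted mice did not overlap in CPM in either genotype, and log2 fold changes were 0.49 (SE 0.11, adjusted p = 0.00407) and 0.50 (SE 0.12, adjusted p = 0.00478) by edgeR. The other cathepsins in the set, Ctsb and Ctsd, at 149 and 61.1 TPM in fed Nt+/+ mice beside 9.51 TPM for Ctsl, did not pass. For Ctsb the log2 fold change was 0.03 (95% interval -0.13 to 0.18) in Nt+/+ and 0.10 (-0.06 to 0.27) in Nt-/- mice, and for Ctsd it was 0.11 (-0.11 to 0.32) and 0.17 (-0.06 to 0.39).

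Mcoln1 (chromosome 8, 3500457 to 3515232, plus strand), the lysosomal calcium channel TRPML1, had 25.6, 26.7, 26.2, 26.1 and 23.9 CPM in fed and 28.3, 32.9, 30.6, 38.6 and 25.4 CPM in fasted Nt+/+ mice. In Nt-/- mice it had 25.1, 27.3, 26.7 and 23.5 CPM fed and 29.8, 33.6, 32.5, 33.1 and 26.9 CPM fasted. One fasted mouse in each genotype lay in the fed range, and in Nt+/+ mice that was the mouse with disagreeing labels. Mcoln1 rose by 0.28 in both, with adjusted p = 0.0402 and 0.0465 (edgeR), and leaving out one mouse ended the call in 8 of 19 cases for Nt+/+ (adjusted p up to 0.144) and in 13 of 19 for Nt-/- mice (up to 0.125).

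Lamp1 (chromosome 8, 13159161 to 13175338, plus strand) had a log2 fold change of 0.12 (SE 0.065, adjusted p = 0.22) in Nt+/+ mice, and rose by 0.30 (SE 0.069, adjusted p = 0.00351) in Nt-/- mice. Fed and fasted mice were apart in both genotypes, at 257 to 269 and 275 to 305 CPM in Nt+/+ and 248 to 297 and 317 to 361 CPM in Nt-/- mice. Lamp2, needed for fusion of autophagosomes with lysosomes, showed -0.16 and -0.02 and passed in neither. It passed as lower in Nt+/+ mice once the mouse with disagreeing labels was left out or placed among the knockouts, so that 3 members fell there.

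**Figure D3:**
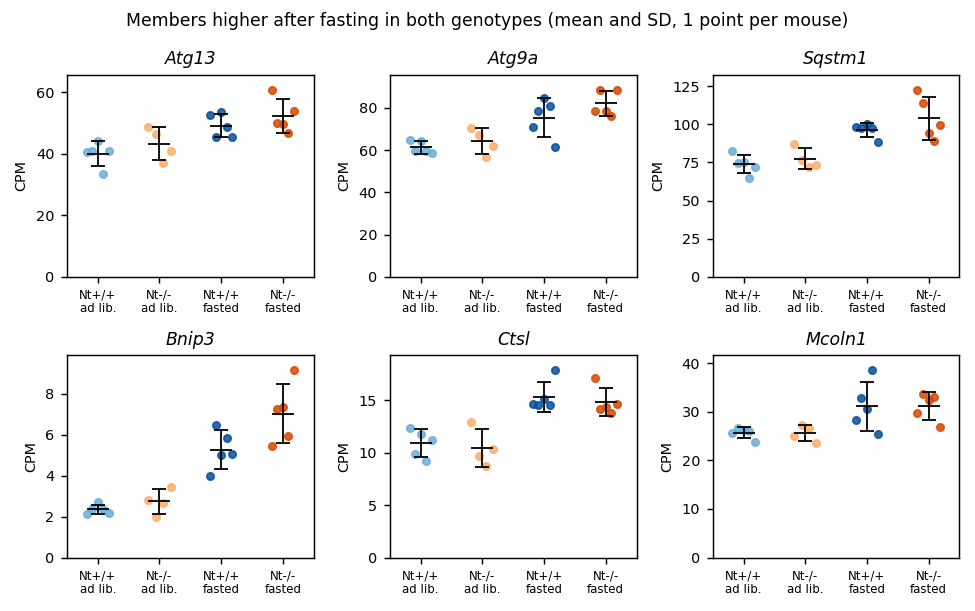
CPM per mouse (points), with group mean and SD (bars), of the 6 members that rose with fasting in both genotypes, in the 4 groups. For Bnip3, Sqstm1 and Ctsl all fasted mice lie above all fed mice of their genotype, while for Mcoln1 one fasted mouse in each genotype lies in the fed range.

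Initiation genes moved in opposite directions in Nt+/+ mice. Atg13 (chromosome 2, 91674618 to 91710576, minus strand), the adaptor that joins ULK1 to its complex, had 40.7, 40.9, 44.3, 33.3 and 41.0 CPM in fed and 52.4, 45.6, 53.5, 48.8 and 45.5 CPM in fasted Nt+/+ mice. Fed Nt-/- mice had 48.7, 46.6, 37.0 and 40.9 CPM and fasted ones 60.9, 49.9, 49.6, 46.8 and 53.9 CPM. The groups were apart in Nt+/+ and overlapped in Nt-/- mice, and Atg13 rose by 0.30 (SE 0.091, adjusted p = 0.0238) and by 0.27 (SE 0.097, adjusted p = 0.045) in edgeR. Leaving out one mouse ended the call in 3 and in 11 of 19 cases, with adjusted p up to 0.0687 and 0.168.

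Ulk2 (chromosome 11, 61775649 to 61855073, minus strand), a kinase related to ULK1, fell in Nt+/+ mice from 22.0, 20.7, 17.97, 17.8 and 20.8 CPM to 13.3, 16.4, 15.1, 15.6 and 18.2 CPM. Only the mouse with disagreeing labels, at 18.2 CPM, reached into the fed range. The log2 fold change was -0.34 (SE 0.098, edgeR adjusted p = 0.0171), and it stayed called whichever single mouse was left out. In Nt-/- mice Ulk2 had 22.8, 21.0, 17.4 and 21.8 CPM fed and 22.2, 18.7, 21.3, 19.9 and 22.4 CPM fasted, a log2 fold change of 0.01 (95% interval -0.20 to 0.23). Ulk1 itself showed 0.11 and 0.04, Rb1cc1 (FIP200, the scaffold of the complex) -0.13 and 0.00016, and Atg101 -0.07 and 0.0067, none of which passed.

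Among genes of the PI3-kinase complexes, which make the lipid PI3P on the forming membrane, none passed in Nt+/+ and 2 of 5 rose in Nt-/- mice. Atg14, the subunit that places the complex at the autophagosome, ran from 10.9 to 13.2 CPM fed and 14.0 to 17.4 CPM fasted in Nt-/- mice (log2 fold change 0.40, SE 0.11, edgeR adjusted p = 0.00837). In Nt+/+ mice it ran from 12.1 to 15.5 and from 13.7 to 17.2 CPM, with 0.10 (95% interval -0.10 to 0.31). Becn1, beclin 1, rose from a mean of 117 ± 2.54 (SD, n = 4) to 134 ± 6.14 CPM (SD, n = 5) in Nt-/- mice, a log2 fold change of 0.19 with adjusted p = 0.0418 that 8 of 19 single-mouse omissions ended (up to 0.102), and 43.9% of its exon bases overlap Cntd1 on the other strand. Pik3r4, the regulatory subunit VPS15, had -0.14 and -0.21, and in Nt-/- mice its adjusted p was 0.0698 without and 0.0378 with the replicate block of file-name numbers. Pik3c3 and Uvrag showed values from -0.07 to 0.09 in the 2 genotypes.

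PI3P effectors and lipid supply held 2 calls in Nt+/+ and 1 in Nt-/- mice. Atg9a (chromosome 1, 75180860 to 75192196, minus strand) encodes the membrane protein that brings lipid vesicles to the forming autophagosome. It had 65.0, 59.5, 64.4, 59.5 and 58.6 CPM in fed and 71.0, 78.7, 84.9, 80.8 and 61.4 CPM in fasted Nt+/+ mice. Fed Nt-/- mice had 70.5, 67.3, 56.7 and 62.2 CPM and fasted ones 78.6, 88.4, 78.6, 76.2 and 88.7 CPM. All fasted mice but the one with disagreeing labels stood above the fed mice. Atg9a rose by 0.30 (SE 0.083, adjusted p = 0.0141) and 0.35 (SE 0.088, adjusted p = 0.00571) in edgeR, and 31.8% of its exon bases are shared with another annotated gene on the same strand. Wipi1, which reads PI3P, rose by 0.38 (adjusted p = 0.0474) in Nt+/+ mice and showed 0.38 (adjusted p = 0.0595) in Nt-/- mice, and the replicate block gave 0.0062 and 0.0093. Its call in Nt+/+ mice was lost in 13 of 19 single-mouse omissions (up to 0.122). Wipi2 and Atg2a, the lipid transfer protein, had values from 0.03 to 0.13 and passed in neither.

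Conjugation enzymes held 1 call among 6 in Nt+/+ and 0 in Nt-/- mice. Atg5, part of the complex that attaches ATG8 to lipid, fell in Nt+/+ mice from 28.9 to 31.1 CPM in fed to 22.3 to 28.5 CPM in fasted mice (log2 fold change -0.27, SE 0.081, edgeR adjusted p = 0.022). In Nt-/- mice it showed -0.08 (95% interval -0.26 to 0.10). Leaving out fasted Nt+/+ replicate 3 or 4 ended its call, with adjusted p of 0.0634 at most. Atg3, Atg4b, Atg7, Atg12 and Atg16l1 had log2 fold changes from -0.13 to 0.13 in the 2 genotypes.

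The ATG8 genes encode the ubiquitin-like proteins that coat the autophagosome, and 2 of 5 rose in Nt-/- mice. Map1lc3b, the LC3 gene most used to follow autophagy, had 44.5 to 56.3 CPM in fed and 58.8 to 73.4 CPM in fasted Nt-/- mice (log2 fold change 0.37, SE 0.089, edgeR adjusted p = 0.00512). In Nt+/+ mice it had 41.9 to 54.4 and 52.1 to 61.5 CPM, with 0.17 (adjusted p = 0.173), and passed with the replicate block at 0.0385. Map1lc3a, at 2.45 to 3.22 CPM fed and 3.35 to 6.78 CPM fasted in Nt-/- mice, rose by 0.62 (SE 0.21, adjusted p = 0.0344), a call lost in 4 of 19 omissions. Gabarapl1 showed 0.29 (adjusted p = 0.232) and 0.49 (adjusted p = 0.0515), the latter passing with the block at 0.0053. Gabarap and Gabarapl2, among the ATG8 genes of highest level, showed -0.07 and -0.10 in Nt+/+ and -0.0062 and -0.0041 in Nt-/- mice.

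The transcription factors of the set did not pass in either genotype. Tfeb had 12.3 ± 1.93 CPM (SD, n = 5) in fed and 11.5 ± 2.55 CPM (SD, n = 5) in fasted Nt+/+ mice, with a log2 fold change of -0.10 (95% interval -0.38 to 0.19), and -0.17 (-0.48 to 0.13) in Nt-/- mice. Tfe3 showed -0.06 (-0.25 to 0.12) and 0.02 (-0.18 to 0.21). Both factors are known to be controlled largely by phosphorylation and entry into the nucleus, which RNA levels do not report.

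The Nt genotype was compared next, within each diet. In ad libitum-fed mice 0 of 39 members passed, with 1 at an unadjusted p under 0.05, by edgeR or by DESeq2. Across all genes 0.00559% passed, which is 1 gene, Nts itself, and 298 of 17877 had an unadjusted p under 0.05 in edgeR. Atg14 had the smallest p of the members, with 12.3, 14.7, 15.5, 12.1 and 15.0 CPM in Nt+/+ and 11.0, 13.2, 10.9 and 12.4 CPM in Nt-/- mice. The groups overlapped, and the log2 difference, Nt-/- over Nt+/+, was -0.23 (95% interval -0.45 to -0.01, adjusted p = 1). Bnip3 and Atg13 followed with 0.23 (-0.17 to 0.62) and 0.11 (-0.09 to 0.32).

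After fasting, again 0 of 39 members passed by edgeR, and 0.00559% of all genes passed, Nts alone. At an unadjusted p under 0.05 there were 6 members, beside 1634 of all 17877 genes. Of the members, 30 had a value above 0 (Nt-/- over Nt+/+), with a median of 0.09 beside -0.01 for all genes, and 47.3% of all genes above 0. By role, the members above 0 were 3 of 5 initiation genes, 4 of 5 PI3-kinase genes, 4 of 4 PI3P effectors, 2 of 6 conjugation enzymes, 5 of 5 ATG8 genes, 6 of 6 cargo receptors, 2 of 2 transcription factors and 4 of 6 lysosomal members. Of the other pathway genes tested, 97 of 134 were above 0. The summed CPM of the 6 cargo receptors was 426 to 511 in fasted Nt+/+ and 488 to 556 in fasted Nt-/- mice. Beside this, all 7 enterocyte markers were also above 0 in the same comparison, with a median log2 difference of 0.44, and their part in it was not tested. None of the enterocyte markers passed either, the smallest adjusted p being 0.195.

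Ulk2 had the smallest p after fasting. Its values were 13.3, 16.4, 15.1, 15.6 and 18.2 CPM in fasted Nt+/+ and 22.2, 18.7, 21.3, 19.9 and 22.4 CPM in fasted Nt-/- mice, so the groups did not overlap. The log2 difference was 0.41 (SE 0.098, 95% interval 0.21 to 0.62), with adjusted p = 0.195 in the edgeR fit across all genes. Lamp1 was also apart, with 275, 301, 305, 281 and 275 CPM against 348, 336, 321, 317 and 361 CPM, a log2 difference of 0.23 (SE 0.065, 95% interval 0.09 to 0.36, adjusted p = 0.276). Bnip3l (0.29, SE 0.092, adjusted p = 0.345) had 44.6, 41.3, 34.9, 36.1 and 42.4 CPM against 50.8, 43.8, 46.9, 47.2 and 54.3 CPM, with 1 Nt-/- mouse in the Nt+/+ range. Ulk2 and Lamp1 passed in DESeq2, at adjusted p = 0.0144 and 0.0218, where 101 genes passed in all. With the replicate block of file-name numbers the smallest adjusted p of the members was 0.0602, for Ulk2.

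**Figure D4:**
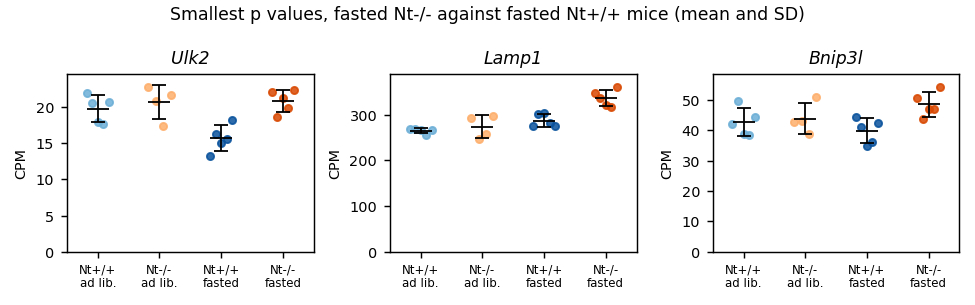
CPM per mouse (points), with group mean and SD (bars), of Ulk2, Lamp1 and Bnip3l, the members with the smallest p between the genotypes after fasting, in the 4 groups. Fasted Nt+/+ and Nt-/- mice do not overlap for Ulk2 or Lamp1, and neither gene passed at an adjusted p of 0.05 in edgeR.

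Whether fasting acted differently in the genotypes was tested as an interaction, and 0 of 39 members and 0% of all genes passed in edgeR, with 1 member and 483 genes at an unadjusted p under 0.05. Calls made in one genotype and not in the other are therefore not shown to differ. The smallest p was again that of Ulk2, whose fasting effect was 0.35 higher in Nt-/- mice (95% interval 0.06 to 0.65, edgeR adjusted p = 0.9998). Atg14 followed with 0.30 (-0.0022 to 0.60) and Lamp1 with 0.18 (-0.02 to 0.38). For Bnip3, Sqstm1, Ctsl and Mcoln1 the differences were 0.19 (-0.34 to 0.72), 0.04 (-0.22 to 0.30), 0.01 (-0.34 to 0.36) and 0.0024 (-0.28 to 0.29).

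Other genes of the pathway, taken from lists written from general knowledge, moved in both directions with fasting. Of 134 tested, 21 rose and 19 fell in Nt+/+ mice and 29 rose and 14 fell in Nt-/- mice. These are shares of 29.9% and 32.1%, beside 21.6% and 25.1% of all genes. The median SE was 0.092 and 0.098 for these lists and 0.156 and 0.167 for all genes, so the shares compare genes of unlike precision. Among all genes with at least 10 counts in every mouse, 27.5% and 31.6% were called. The lists were not counted under that filter. In both genotypes 20 rose and 11 fell, which is 23.1%, beside 16.4% of all genes. The list medians were 0.003 and 0.04, beside -0.01 and -0.02 for all genes.

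**Figure D5:**
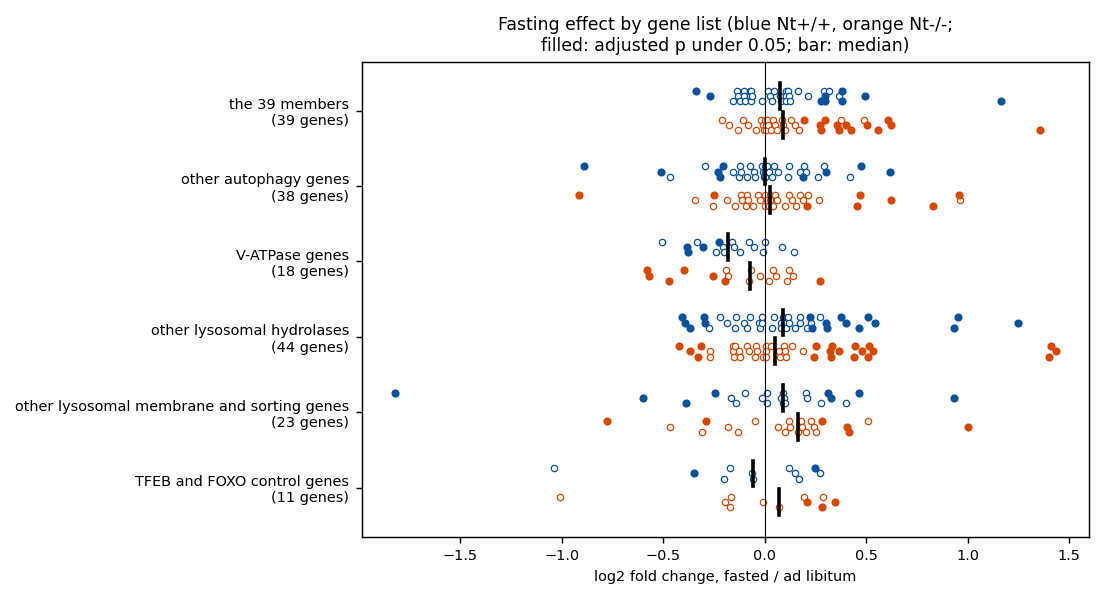
Log2 fold changes, fasted over ad libitum-fed, of the 39 members and of 5 lists of other pathway genes, with 1 point per gene, Nt+/+ in blue and Nt-/- in orange; filled points passed an adjusted p of 0.05 and bars are medians. Hydrolases hold calls on both sides of 0, and V-ATPase genes have medians of -0.18 and -0.07.

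Among 38 other autophagy genes, 4 rose and 5 fell in Nt+/+ mice and 6 rose and 2 fell in Nt-/- mice. The shares called, 23.7% and 21.1%, were near those of all genes, 21.6% and 25.1%. Pink1, the kinase that marks damaged mitochondria, rose by 0.62 (SE 0.10) and 0.96 (SE 0.11), adjusted p = 0.000245 and 4.19e-06 in edgeR. Retreg1, a receptor for turnover of endoplasmic reticulum, rose by 0.47 and 0.83. Zfyve1 and Wdr45b, which bind PI3P, rose in both as well, by 0.30 and 0.47 and by 0.19 and 0.21. Trp53inp2, a nuclear protein that promotes autophagy, fell by 0.89 and by 0.92, and Epg5, a tethering factor, fell by 0.20 and by 0.25.

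Lysosomal hydrolases, the longest of the lists, held the most calls. Their shares called were 38.6% in Nt+/+ and 43.2% in Nt-/- mice, beside 21.6% and 25.1% of all genes. Among all genes with at least 10 counts in every mouse the shares were 27.5% and 31.6%. Of 44 tested, 12 rose and 5 fell in Nt+/+ and 15 rose and 4 fell in Nt-/- mice. Of the 5, Gusb lost its call once the mouse with disagreeing labels was left out or placed among the knockouts. Placing it there also ended the call of Gla in Nt-/- mice. Lipa, the acid lipase that hydrolyses cholesteryl esters and triglycerides, rose by 0.95 (SE 0.19, adjusted p = 0.00152) and 1.44 (SE 0.21, adjusted p = 5.7e-05). The proteases Ctsf and Lgmn rose by 1.25 and 1.41 and by 0.93 and 1.40, and Gaa, which degrades glycogen, rose by 0.55 and 0.51. Neu1, a sialidase, rose by 0.47 and 0.53. The 4 hydrolases that fell in both genotypes were Hexa (-0.30 and -0.42), Gla (-0.39 and -0.37), Ids (-0.41 and -0.31) and Arsb (-0.29 and -0.33). Single-mouse omissions ended the call of Ids in Nt-/- mice in 12 of 19 cases (adjusted p up to 0.126 by edgeR), of Gla in 4 cases in Nt+/+ and 10 in Nt-/- mice (up to 0.0722 and 0.103), of Hexa in 6 in Nt+/+ mice (up to 0.102) and of Arsb in 4 in Nt-/- mice (up to 0.0696).

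The V-ATPase, the proton pump that acidifies the lysosome, had 4 of 18 genes lower and 0 higher in Nt+/+ mice and 6 lower and 1 higher in Nt-/- mice. The shares called were 22.2% and 38.9%, beside 21.6% and 25.1% of all genes. Atp6v0e fell by 0.38 and by 0.26, Atp6v0b by 0.37 and by 0.47, and Atp6ap1 by 0.30 and by 0.40. The 1 gene that rose was Atp6v1b2, by 0.27 in Nt-/- mice. Of 23 membrane and sorting genes, 4 rose in each genotype, and 4 and 2 fell (34.8% and 26.1% called). Scarb2, LIMP-2, the receptor that carries glucocerebrosidase to the lysosome, rose by 0.93 (SE 0.12, adjusted p = 1.42e-05) and 1.00 (SE 0.13, adjusted p = 1.25e-05). Npc1, the lysosomal cholesterol exporter, rose by 0.47 and 0.40 (a call in Nt-/- mice that 3 of 19 single-mouse omissions ended), while the channel gene Tpcn2 fell by 0.60 and by 0.78. Of 11 control genes around TFEB and FOXO, Fnip2 rose and Rragd, a GTPase of the mTORC1 nutrient-sensing branch, fell in Nt+/+ mice by 0.35, and Fnip1, Foxo3 and Foxo1 rose in Nt-/- mice by 0.35, 0.28 and 0.21. Shares called of these 11 genes were 18.2% and 27.3%. Single-mouse omissions ended the call of Fnip2 in 5, of Foxo3 in 4 and of Foxo1 in 3 of 19 cases. With the mouse with disagreeing labels left out or placed among the knockouts, Fnip2 and Clcn7, a membrane gene that fell, lost their calls in Nt+/+ mice. Placing it among the knockouts ended the calls of Foxo3 and of Atp6v1g2, which fell, in Nt-/- mice.

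Reads of some members may be shared with other genes. Expected counts were not whole in all 19 mice for 7 members, which are Rb1cc1, Becn1, Uvrag, Sqstm1, Bnip3, Ctsb and Ctsd, and were whole in every mouse for 22. In the GENCODE M21 annotation 14 members share exon bases with another gene, among them Ctsl (26.8% with a gene on the other strand) and Sqstm1 (17.3%). The strand setting of the counting was not given in the sources used here, so antisense reads cannot be told apart.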

How the data were processed

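Crypts came from the small intestine without its distal part, per the study's methods. Their RNA was depleted of ribosomal RNA (KAPA RNA HyperPrep with RiboErase) and read single-end. Per the labels, the authors trimmed reads with Trimmomatic 0.39 and used RSEM on GRCm38, and the deposited files hold an expected count and a TPM per gene and mouse. The aligner and strand setting were not given in the sources used here. Mice were grouped by title. Age per mouse was not given in the sources used here, and fed mice were littermates matched for sex and age, per the study's methods.

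Expected counts were rounded to whole numbers, and 55141 of 55487 genes were matched to a symbol by ID. Genes were filtered with filterByExpr, scaled by TMM and fitted in edgeR 4.0.16 (R 4.3.3), quasi-likelihood, with 1 coefficient per group over all 19 mice and no covariate. Adjusted p-values are Benjamini-Hochberg over 17877 genes, called under 0.05. Intervals are 95% from the fit, and CPM used TMM library sizes. The biological coefficient of variation was 18.9%. The fit was tested on simulated data. The deposited TPM served for levels between genes.

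All 39 members were named, each mouse's values being given for those called in both fasting comparisons and for the 3 with the smallest p between genotypes, and up to 4 called genes per list and direction were candidates for naming among other pathway genes. Members and lists were chosen with earlier results of these data known. Alternatives were DESeq2 1.42.0, upper quartile scaling, other filters (none, or at least 10 counts in every mouse), sex, the labels of 1 mouse, the compared groups alone, each mouse left out, and replicate blocks. The fit with sex left out 1 fasted Nt-/- mouse whose sex was not given, so it mixes the covariate with that omission.

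Mice with the same number in the file names deviated together from their group means in each of the 4 comparisons (every pair's r over 0.1, lowest 0.117), and were treated as pairs for the block. Over all 27 such pairs between groups, 24 had an r over 0.1, the lowest being 0.067. Mice of the same file-name number also had the same sex wherever it was given. A shared number and a shared sex therefore cannot be told apart within a pair, and the block also takes up sex. The title numbers differ from these for 2 fed Nt-/- mice, and passed that check in 2 comparisons, the lowest r in the other 2 being -0.064 and 0.006. By title number, these 2 mice pair with mice of the other sex.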

Additional observations from a re-analysis of the deposited data

Results flagged for a closer look

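Of 156 member and group combinations, 9 held a mouse far from the other mice of its group (Dixon's test at 95%). Chance flags about 1 in 20 groups. Fasted Nt-/- replicate 1 was the highest of its group for Ctsl (17.1 CPM, the others 13.8 to 14.6), Map1lc3a (6.78 CPM, the others 3.35 to 4.20) and Wipi1 (37.3 CPM, the others 23.0 to 26.7). Fasted Nt+/+ replicate 5, the mouse with disagreeing labels, was the highest for Ctsl (17.9 CPM, the others 14.5 to 15.1) and the lowest for Sqstm1 (88.6 CPM, the others 97.3 to 100.5). Atg101 was high in fed Nt-/- replicate 1 (10.7 CPM, the others 8.38 to 8.66) and in fasted Nt+/+ replicate 1 (12.9 CPM, the others 8.19 to 9.13). Gabarapl2 was low in fed Nt-/- replicate 3 (37.5 CPM, the others 41.4 to 42.1), and Lamp1 was low in fed Nt+/+ replicate 4 (257 CPM, the others 266 to 269). Without fasted Nt-/- replicate 1 the members Atg13, Becn1, Map1lc3a and Mcoln1 lost their call in Nt-/- mice, while Ctsl kept it.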

How the results depend on the processing

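Bnip3, Sqstm1, Ctsl and Atg9a kept direction and call in both fasting comparisons under every alternative fit. In TPM, where no call was made, they kept direction. The log2 ratio of group means moved there by at least the SD between fasted mice for Sqstm1 in Nt+/+ mice (to 0.30). It also did so for Calcoco1 in Nt+/+ (to 0.45) and Nt-/- mice (to 0.75). Without the low-count filter, 4 members rose and 1 fell in Nt+/+ mice, with 8.88% of 34635 genes called in place of 21.6%. The number of members that fell in Nt-/- mice was 1 with upper quartile scaling, with at least 10 counts in every mouse and under either replicate block. DESeq2 called 3 genes between fed genotypes and 101 between fasted ones, of which 2 were members that were higher. With at least 10 counts in every mouse, or with the mouse of disagreeing labels grouped as knockout, 0 genes were called in either; the first of these filters removes Nts. Leaving out each mouse, 4 to 7 members rose and 1 to 3 fell in Nt+/+ mice, 9 to 14 rose and 0 to 1 fell in Nt-/- mice, and 1 to 4 genes were called between fasted genotypes. The fasting effect of Ulk2 in Nt-/- mice, 0.01, changed sign to -0.0073 without the filter, -0.014 with title numbers as the replicate block, -0.012 with sex, -0.019 with that mouse regrouped and -0.025 in TPM, and ran from -0.062 to 0.064 over single omissions. The cause of these shifts was not tested. The replicate blocks lost no call of a member and, beside the calls given with the results, changed none between genotypes. Precision was limited for low genes, Bnip3 having 37 counts in its lowest mouse. Groups given as apart were compared in CPM. In TPM, fed and fasted Nt+/+ ranges overlapped for Ctsl (8.03 to 12.58 and 11.01 to 14.12), Sqstm1 (50.8 to 61.4 and 53.8 to 77.0) and Atg13. Lamp1 overlapped in TPM between fed and fasted mice of both genotypes and between fasted genotypes, and Atg9a between fed and fasted Nt-/- mice. Bnip3 in both genotypes, Ctsl and Sqstm1 in Nt-/- mice, and Ulk2 between fasted genotypes stayed apart.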
